A study of Mus musculus with 35 samples.

Results

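H3K27Ac ChIP-Seq of P12 Brg1-deficient retinae was set against wild-type retinae, using 4 of the 35 samples of the series. The Brg1-deficient group held 2 libraries (r1 and r2) of P12 Chx10-Cre;Brg1Lox/Lox mouse retinae, which the labels give as BRG1 -/-. The wild-type group held the one P12 library listed here, with P14 library r2 as a second wild-type reference. These members were chosen by their labels, and all 4 carried the same H3K27Ac antibody label. The Chx10-Cre transgene is active in retinal progenitor cells in a mosaic pattern, which leaves some cells of these retinae with Brg1. Microphthalmic mice were favoured as a source of chromatin, and the number of animals behind each library is not given in the sources used here. Because retinae were profiled whole, fewer cells of a type and less acetylation per cell cannot be told apart.

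Brg1 is an ATPase of the SWI/SNF (BAF) complexes, which move and evict nucleosomes. H3K27Ac marks active promoters and active enhancers, whereas H3K4me3 is found mainly at promoters, so an H3K27Ac region without H3K4me3 is often a candidate enhancer. In the mouse, rod photoreceptors and other late-born retinal neurons are formed and mature after birth, and many enhancers gain acetylation over that period.

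The files are lists of peaks, with the fold enrichment of each peak over background, on the mm9 build. Wild-type P12 held 47404 peaks and wild-type P14 r2 50005, against 40465 and 42887 in Brg1-deficient r1 and r2. Read depth is unknown, and a region without a peak is one where none was called, not one shown to lack acetylation. Overlapping peaks of the 4 lists were merged into 60356 regions, and the height of a region in a library was the largest fold enrichment of its peaks there. Heights were divided by a factor per library, so that the medians over the 21112 regions covered in every library were equal. A region was counted as having H3K4me3 where a P12 H3K4me3 peak of either genotype overlapped it, which held for 20593 regions (34.1%). With 1 wild-type P12 library no test between the genotypes was possible, so differences were read against those between the Brg1-deficient libraries and between wild-type P12 and P14, a pair that also differs in age. No annotation of the mm9 build was used, so regions are given by position, and neither retinal marker genes nor the deleted exons of Brg1 were checked here.

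H3K4me3 separated the wild-type P12 peaks that were found again in Brg1-deficient retinae from those that were not. Of 20817 wild-type P12 peaks with H3K4me3, 89.4% overlapped a peak in both Brg1-deficient libraries (Wilson 95% interval 89.0 to 89.8%). Of 26587 peaks without it, 37.5% did (36.9 to 38.1%). The intervals cover counting error only. Taken singly, r1 and r2 held 92.2% and 93.9% of the peaks with H3K4me3 but 46.6% and 55.3% of those without. Wild-type P14 r2 was also poorer in the second kind, with 95.9% of the peaks with H3K4me3 and 68.0% of those without. Wild-type P21 r2, a library of 45833 peaks, held 90.5% and 56.7%. The gap between wild-type P14 and the Brg1-deficient libraries was 3.74 and 2.003 percentage points at peaks with H3K4me3, and 21.4 and 12.7 points at peaks without it. Wild-type P21 lay below both Brg1-deficient libraries at peaks with H3K4me3, and 1.41 points above r2 at peaks without it, so a wild-type library of another age found about as few of the latter as r2. The share of r1 at peaks without H3K4me3, 46.6%, was further below the 56.7% of wild-type P21. The libraries r1 and r2 differed from each other by 1.74 and 8.73 points at these 2 kinds of peaks.

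The split was also seen among peaks of like height. In the lowest quintile of wild-type P12 fold enrichment, up to 3.77, r1 held 32.9% and r2 40.4% of the peaks without H3K4me3, against 53.9% in wild-type P14 and 42.2% in wild-type P21. With H3K4me3 the same quintile gave 74.2% and 78.1%, against 85.2% and 68.2%. In the middle quintile the values without H3K4me3 were 47.6% and 58.8%, against 73.1% and 60.2%. By the highest quintile nearly all peaks without H3K4me3 were found, 98.4% in r1, 99.0% in r2, 100% in wild-type P14 and 98.9% in wild-type P21. The Brg1-deficient libraries lay below wild-type P14 in each quintile. Against wild-type P21 this held for r1 at peaks without H3K4me3 alone, where r1 lay below it in each quintile and r2 was close to it. With H3K4me3 both lay above it in each quintile.

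**Figure D1:**
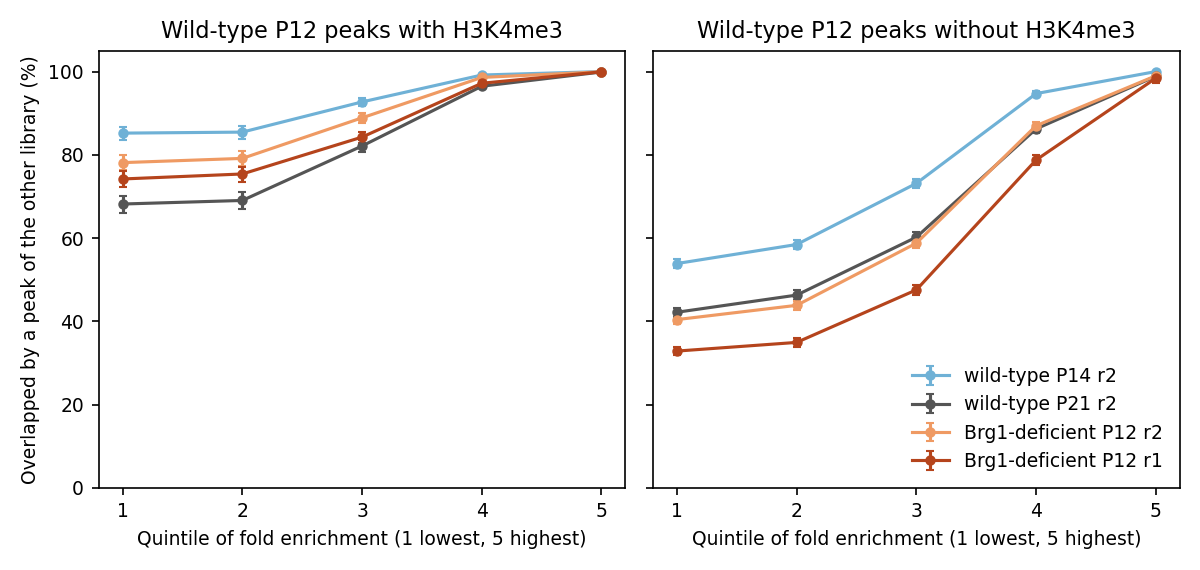
Percentage of wild-type P12 H3K27Ac peaks overlapped by a peak of Brg1-deficient r1, Brg1-deficient r2, wild-type P14 r2 or wild-type P21 r2, by quintile of wild-type P12 fold enrichment, for peaks with (left) and without (right) P12 H3K4me3. Bars are Wilson 95% intervals. Without H3K4me3 the lowest quintile runs from 32.9% in Brg1-deficient r1 to 53.9% in wild-type P14, with wild-type P21 at 42.2%, and the highest quintile lies at or above 98.4% in all 4 libraries.

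A peak in both wild-type libraries and in neither Brg1-deficient library was found at 3059 regions (5.07% of all regions), called wild-type-only here. The reverse pattern, Brg1-deficient-only, was found at 817 regions (1.35%). The other wild-type P14 library, r1, is a sparser list of 17433 peaks and took no part in the rule. It had a peak at 70 wild-type-only regions (2.29%) and 3 Brg1-deficient-only regions (0.367%). Its share was 20.7% over all regions and 1.41% over those with a peak in exactly 2 libraries. Most wild-type-only regions thus had no call in that wild-type library either. Wild-type-only regions lay mostly away from H3K4me3, with 2795 of the 3059 lacking it. They made up 7.03% of all regions without H3K4me3 and 1.28% of those with it. Brg1-deficient-only regions were spread more evenly, at 1.42% of regions without H3K4me3 (566) and 1.22% of regions with it (251). On every one of the 19 autosomes wild-type-only regions outnumbered Brg1-deficient-only regions, at 4.15 to 6.12% of the regions of a chromosome against 0.629 to 1.87%. The autosomes come from the same 4 libraries, so they are not replicates of this difference.

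The number of peaks in each list bears on these counts. When every library was reduced to its 40465 peaks of highest −log10 q-value, wild-type-only regions numbered 1794 and Brg1-deficient-only regions 1276. Without Brg1-deficient r1 the direction turned, with 4615 wild-type-only and 5288 Brg1-deficient-only regions, whereas without r2 there were 6042 and 4494. With equal numbers of peaks the share with H3K4me3 hardly moved, at 8.97% and 32.9%, against 8.63% and 30.7% with all peaks. The Brg1-deficient-only share was less stable to the libraries used, at 17.0% without r1, 20.05% without r2 and 46.2% with wild-type P12 as the only reference, where the wild-type-only share was 12.05%, 11.9% and 6.89%. Among regions with a peak in exactly 2 libraries, the share with H3K4me3 depended on the libraries as well as the genotype. It was 22.5% and 31.6% for wild-type P14 paired with Brg1-deficient r2 and r1, and 10.5% and 11.5% for wild-type P12 paired with r2 and r1. The wild-type-only share was the lowest of the 6 pairs, and the Brg1-deficient-only share was the second highest.

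**Figure D2:**
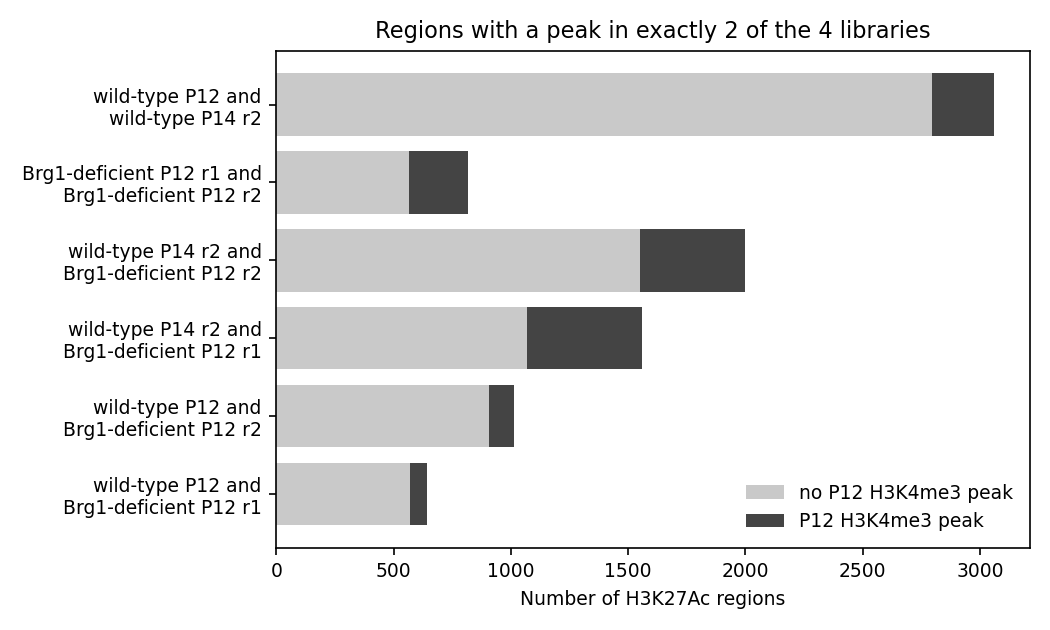
Number of H3K27Ac regions with a peak in exactly 2 of the 4 libraries, for each of the 6 pairs of libraries, with (dark) and without (light) a P12 H3K4me3 peak. The pair of wild-type libraries holds 3059 regions, of which 264 have H3K4me3, and the pair of Brg1-deficient libraries 817, of which 251 have it.

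The strongest wild-type-only region was chr9:72273751-72277169, with heights of 14.1 in wild-type P12 and 16.7 in wild-type P14 and no peak in either Brg1-deficient library. Both P21 libraries held a peak there, with deposited fold enrichments of 17.1 and 13.1, and at P0 the second library alone did, at 4.35. It carried a Brg1 peak at P0 and no H3K4me3 peak at P0, P12 or P14, but one in P21 library r1. These heights are 1.996 and 2.36 times the median of 7.07 over regions with a peak in all 4 libraries.

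Next came chr14:69877616-69881604, at 9.95 and 10.3 in the wild-type libraries, and chr14:69881706-69883706 beside it ranked sixth at 6.90 and 6.52. A single P21 peak in each P21 library, of 11.3 and 11.9, overlapped both. Neither region had an H3K27Ac peak at P0, a Brg1 peak or an H3K4me3 peak at P12, and both had an H3K4me3 peak in P21 library r1. A region on chromosome 18 (9.09 and 8.26) and chr5:137362199-137363965 (8.95 and 8.11) likewise had no P0 H3K27Ac peak, no Brg1 peak and no H3K4me3 peak at P12, and both had H3K27Ac peaks in each P21 library. The region on chromosome 18 also had an H3K4me3 peak in P21 library r1.

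The third of these regions, chr2:118379084-118380518, differed from the others. Its heights were 9.76 in wild-type P12 and 8.52 in wild-type P14, and P0 and P21 peaks were present in all 4 libraries of those ages. It was the one of the 6 with H3K4me3 at P12. The H3K4me3 peak was kept in Brg1-deficient retinae, where its height, scaled between the H3K4me3 libraries, was 20.2, against 25.5 in wild-type P12 and 39.3 and 30.7 in wild-type P14. Here acetylation was called in wild type alone, while trimethylation was called in both genotypes.

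Brg1-deficient-only regions were lower. Their strongest member, chr5:145620772-145622466, had heights of 6.89 in r1 and 8.11 in r2. It was followed by chr9:103092438-103095342 (7.68 and 6.62), chr14:51589129-51590020 (6.44 and 6.66) and chr8:37841846-37842572 (6.35 and 7.08). None of these 4 had a P21, Brg1 or H3K4me3 peak, and the region on chromosome 14 alone had a P0 peak, of 4.55 in the second P0 library. The remaining 2, chr9:88614787-88615209 (6.15 and 7.51) and chr13:103434700-103435153 (5.75 and 5.59), had an H3K4me3 peak in both genotypes. Of the 6 strongest Brg1-deficient-only regions, then, 5 had no H3K27Ac peak in either P21 library, whereas all of the 6 strongest wild-type-only regions had one in both.

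Over all members the same contrast in stage was seen. P21 library r2 overlapped 52.2% of wild-type-only regions and 21.9% of Brg1-deficient-only regions, against 41.2% of the 9091 regions with a peak in exactly 2 libraries. These were the highest and the lowest of the 6 pairs of libraries, the mixed pairs ranging from 30.7 to 41.0%. The sparser P21 library r1 overlapped 15.2% and 3.30%. At P0 the order was the reverse, with 6.996% of wild-type-only and 25.3% of Brg1-deficient-only regions overlapped by library r2, and 1.54% and 10.04% by library r1. For P0 the mixed pairs were less uniform, from 6.21% to 27.4%, so that wild-type P14 paired with Brg1-deficient r1 exceeded the Brg1-deficient pair.

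The P21 contrast was present with and without H3K4me3. Among regions without H3K4me3, P21 r2 overlapped 52.3% of wild-type-only and 21.9% of Brg1-deficient-only regions. With H3K4me3 the values were 51.5% and 21.9%. Peaks at P21 and not at P0 (r2 libraries) overlapped 49.1% of wild-type-only regions and 16.2% of Brg1-deficient-only regions. Peaks at P0 and not at P21 overlapped 3.82% and 19.6%. Wild-type-only regions thus more often had a P21 peak, and Brg1-deficient-only regions more often a P0 peak, although 58.5% of the latter had a peak at neither age. The rule chose the former for peaks in the wild-type P12 and P14 libraries, and the latter for their absence. Part of the contrast with P21, another late wild-type age, therefore follows from the choice.

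Brg1 peaks of P0 Brg1-FLAG retinae lay at 15.4% of wild-type-only and 36.0% of Brg1-deficient-only regions, against 37.3% of all regions and 23.6% of those in exactly 2 libraries. The mixed pairs spanned nearly the same range. Wild-type P12 paired with Brg1-deficient r2 had 16.5%, and wild-type P14 paired with r1 had 36.3%, above the Brg1-deficient pair. H3K4me3 and Brg1 went together at wild-type-only and Brg1-deficient-only regions. Without H3K4me3 the Brg1 shares were 13.5% and 29.2%, and with it 35.2% and 51.4%. The repressive mark H3K27me3 at P12 (wild-type r1) overlapped 42.0% of wild-type-only and 48.2% of Brg1-deficient-only regions with H3K4me3, near the 52.2% of all 2-library regions with H3K4me3. Without H3K4me3 it overlapped 2.22% and 3.004%.

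**Figure D3:**
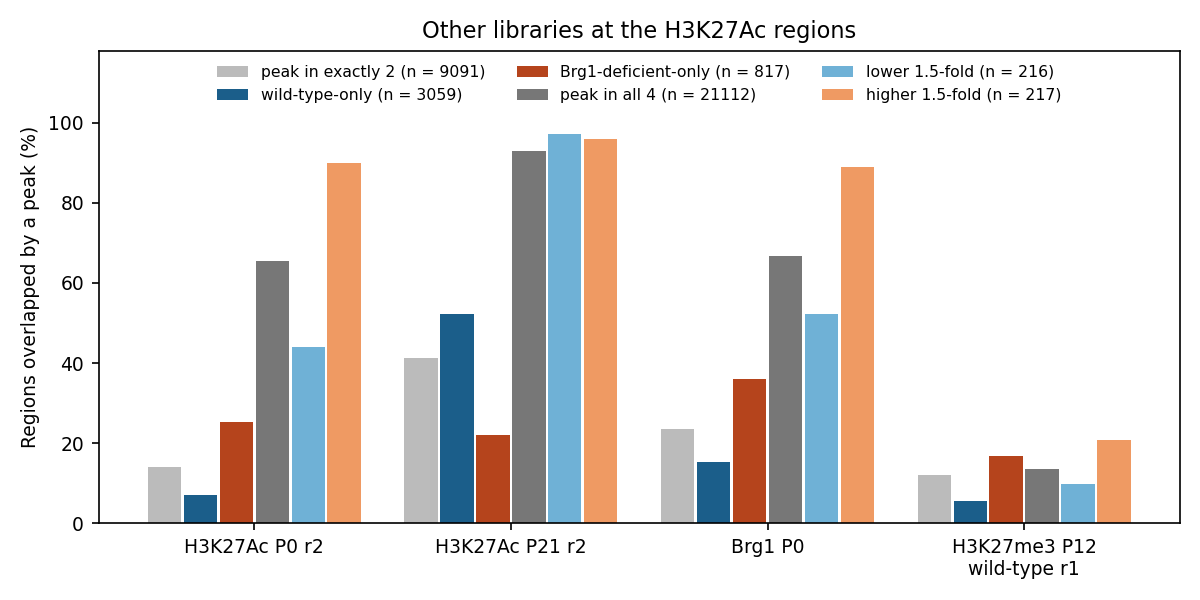
Percentage of H3K27Ac regions overlapped by a peak of 4 other libraries, for regions with a peak in exactly 2 libraries, wild-type-only, Brg1-deficient-only, regions with a peak in all 4 libraries, and those lower or higher by 1.5-fold in Brg1-deficient retinae. P21 peaks overlap 52.2% of wild-type-only and 21.9% of Brg1-deficient-only regions, and Brg1 peaks 52.3% of lower and 88.9% of higher regions.

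Wild-type-only regions were in places grouped. Windows of 100 kb were counted for this after the values were seen. Of 10744 windows with any region, 1965 held a wild-type-only region and 28 held 6 or more, while no window held more than 4 Brg1-deficient-only regions. The classes hold 3059 and 817 regions, so a lower maximum is likely for the smaller one. Windows also differ in their number of regions of any kind, as in chr10:41900001-42000000, with 8 of 50. No expected number of full windows was computed. The fullest window, chr9:72200001-72300000, held 10 wild-type-only regions among 22. It had 19 H3K27Ac peaks in each wild-type library, covering 10350 bp at P12 and 13498 bp at P14. Brg1-deficient r1 and r2 each had 3 peaks there, covering 862 and 1066 bp. At P21 (r2) there were 21 peaks and at P0 (r2) 2, so the block was called at P12, P14 and P21 in wild type and in small part at P0. The window had 2 H3K4me3 peaks in each genotype, covering 3306 bp in wild-type P12 and 1213 bp in Brg1-deficient P12. The one inside the block had a height of 23.2 over 2123 bp in wild type and a scaled height of 6.33 over 284 bp in Brg1-deficient retinae, and the other 49.6 and 30.4. Trimethylation was thus lower as well, with 1 library of each genotype. No H3K27me3 peak of P12 lay in the window.

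A second block lay in chr14:69800001-69900000, where wild-type P12 held 11 peaks covering 10829 bp and wild-type P14 14 peaks covering 11069 bp. In Brg1-deficient retinae r1 had 1 peak of 334 bp at the far side of the window and r2 had 0. The P21 library r2 held 13 peaks and the P0 library r2 held 1. The H3K4me3 peak of the window, called in both genotypes, also lay at that far side and not in the acetylated cluster, with scaled heights of 40.5 in wild type and 34.4 in Brg1-deficient retinae. In addition, 3 H3K27me3 peaks of each P12 library overlapped the window. Their full lengths came to 40797 and 30797 bp in wild type and 25997 bp in Brg1-deficient retinae. In each library the longest of the 3 reached beyond the window edge, so less than this lay inside the window. Other windows with a large share of wild-type-only regions were chr14:46200001-46300000, with 9 of 23, and chr14:48800001-48900000, with 6 of 16. The denser windows chr6:91600001-91700000 and chr8:60000001-60100000 had 9 of 38 and 9 of 37.

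**Figure D4:**
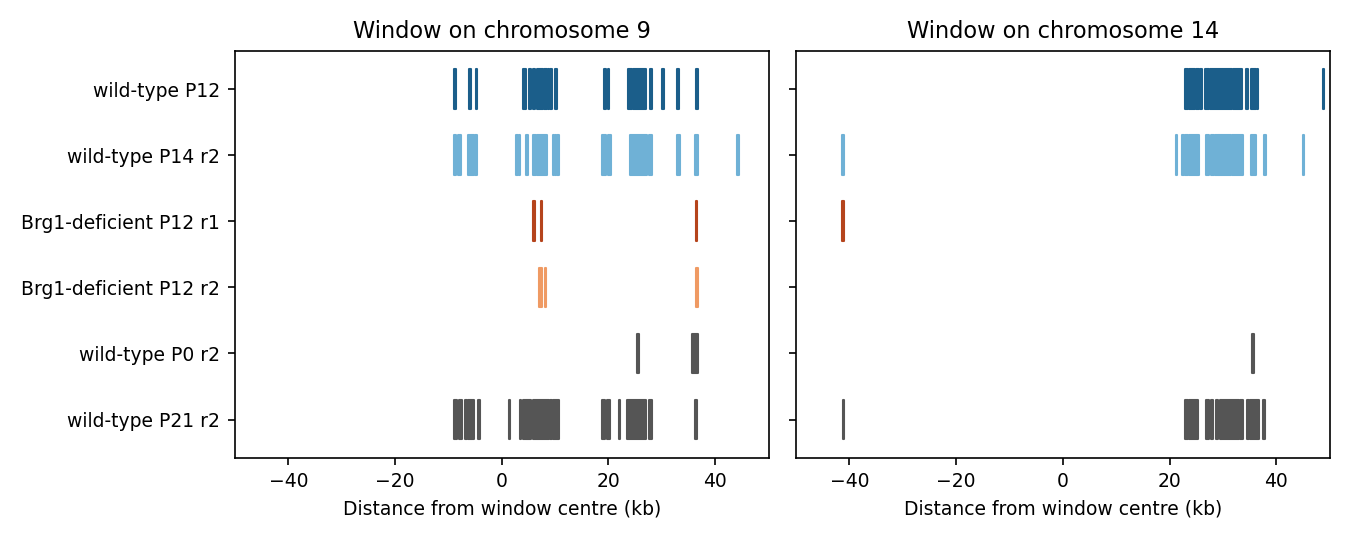
H3K27Ac peaks in the 2 windows of 100 kb described here, drawn as bars by library against the distance from the window centre in kb. On chromosome 9 both wild-type libraries hold 19 peaks and the Brg1-deficient libraries 3 each, and on chromosome 14 the cluster right of the centre has no peak in either Brg1-deficient library.

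The converse was seen on a smaller scale. In chr5:145600001-145700000, which holds the strongest Brg1-deficient-only region, 3 of 5 regions were Brg1-deficient-only, and r1 and r2 had peaks at 4 and 5 regions, against 1 in each wild-type library. In chr6:100700001-100800000, r1 had peaks at 11 of 12 regions and r2 at 5, against 1 in each wild-type library. The window with the most such regions, chr2:105500001-105600000, differed mainly between the Brg1-deficient libraries, since r1 had a peak at 24 of 26 regions and r2 at 7. All 26 regions of that window overlapped a Brg1 peak of P0 retinae, and 25 an H3K27Ac peak of P0.

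At regions with a peak in all 4 libraries, few heights were set apart by genotype. A region was called lower where both Brg1-deficient heights were at most 0.5 of both wild-type heights, and higher where both were at least 2-fold above. There were 16 lower regions (0.0758% of 21112) and 9 higher regions (0.0426%). Of the lower regions 9 had H3K4me3 (0.0616% of such regions) and 7 did not (0.108%), while all 9 higher regions had it. Just inside the limit the smallest of the 4 ratios was 2.002 for lower and 2.02 for higher regions, and just outside it 1.99 and 1.98. Since these heights chose the regions, they are given as a description. With wild-type P12 as the only reference there were 75 lower and 255 higher regions, so the balance of the directions rests on wild-type P14. Without r1 there were 197 and 56, and without r2 159 and 111.

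Lower regions without H3K4me3 led the ranking. The first, chr10:68736417-68740037, had heights of 13.1 in wild-type P12 and 11.4 in wild-type P14, against 4.12 and 4.83 in Brg1-deficient r1 and r2. At chr4:61924201-61924856 the values were 9.90 and 9.06 in wild type and 3.95 and 2.145 in Brg1-deficient retinae. The third, chr9:106303045-106306179, had 8.08 and 8.41 against 3.58 and 3.42. It lay near the region just outside the limit, chr9:106319539-106321177. A broad region, chr19:38075451-38081429, had 13.1 and 13.3 against 5.95 and 5.59. Its length of 5979 bp exceeded the median of 1838.5 bp of the 16. All 7 lower regions without H3K4me3 had a peak in both P21 libraries, and 6 of the 7 had none in either P0 library.

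Lower regions with H3K4me3 included the fifth and sixth in rank. At chr14:55713462-55714339 heights were 17.1 and 15.2 in wild type and 5.78 and 6.89 in Brg1-deficient retinae. At chr13:101386261-101387089, which lay in H3K27me3 in all 3 P12 libraries of that mark, they were 11.8 and 15.01 against 5.43 and 3.26. The latter region shows the larger spread between r1 and r2. Over the 9 lower regions with H3K4me3, wild-type heights ran from 7.33 to 19.2 and Brg1-deficient heights from 3.06 to 8.87. The ranges overlap across regions but in no single region.

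Among higher regions chr4:21693850-21694381 stood first, with 2.168 and 2.79 in wild-type P12 and P14 and 9.18 and 9.001 in Brg1-deficient r1 and r2. At chr2:92274359-92275073 the heights were 2.92 and 2.72 against 8.77 and 8.36. Both were narrow regions with low wild-type heights and Brg1 bound at P0. The third, chr17:55584459-55585576, had 2.54 and 3.91 against 10.8 and 8.79 and lay in H3K27me3 in all 3 P12 libraries. The fourth, chrX:93151701-93152268, had 2.83 and 3.46 against 8.17 and 7.51 and was the one higher region without a Brg1 peak. A stronger region followed, chr7:108255937-108258878, with 6.32 and 8.18 against 18.1 and 17.5. The sixth, chr14:56203427-56204247, had 3.77 and 3.71 against 7.99 and 10.9.

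**Figure D5:**
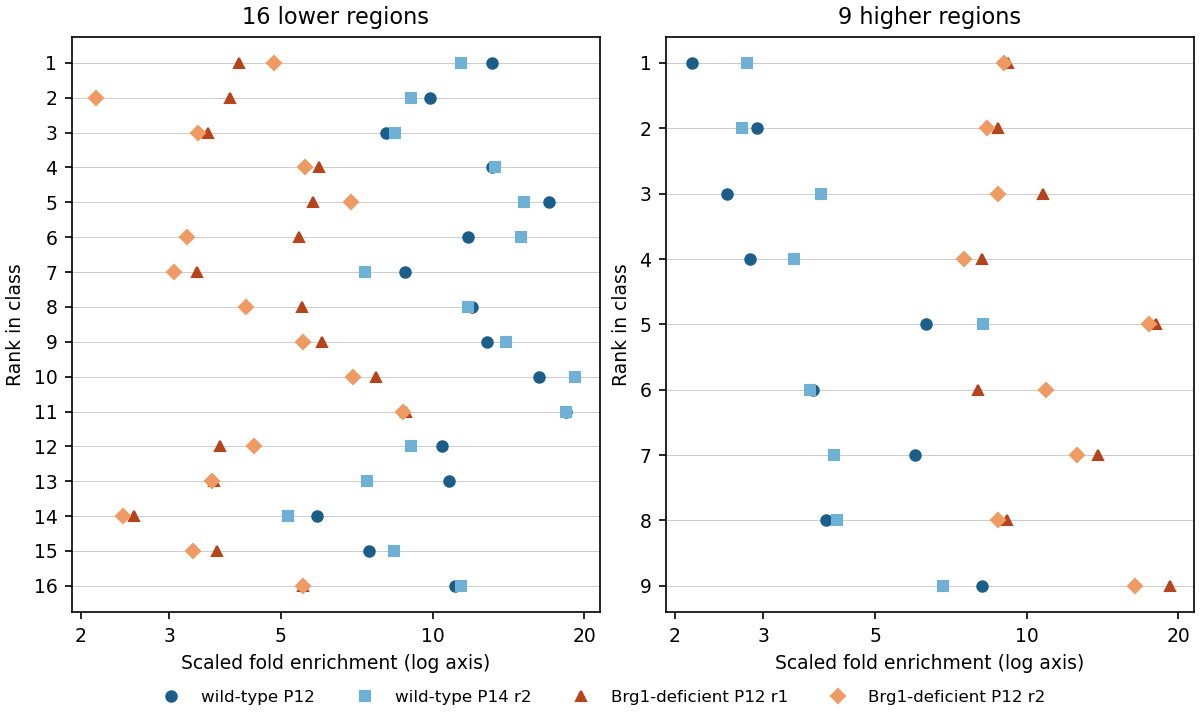
Scaled H3K27Ac fold enrichment (log axis) in each of the 4 libraries at the 16 lower (left) and 9 higher (right) regions, ordered by the smallest of the 4 between-genotype ratios. Wild-type heights lie between 5.15 and 19.2 at lower regions and between 2.168 and 8.18 at higher regions, and the genotypes do not overlap in any region because the rule required it.

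Wild-type libraries that took no part in the choice gave a further reading of these regions. The P21 library r2 had a peak at all 16 lower and all 9 higher regions. Scaled in the same way, it stood above both Brg1-deficient heights at 15 of the 16 lower regions and below both at 9 of the 9 higher regions. Over all regions with a peak in that library it stood above both at 34.9% and below both at 40.2%. At regions with H3K4me3, a mark all 9 higher regions had, it stood below both at 48.3%. Without H3K4me3 it stood above both at 57.0%. In P14 library r1, a sparser list, 12 lower regions had a peak, 10 of them above both Brg1-deficient heights. It had a peak at 3 higher regions, all 3 below both. Over all regions with a peak in it, P14 r1 stood above both at 46.9% and below both at 32.8%. Without H3K4me3 it stood above both at 83.9%, and with H3K4me3 below both at 39.9%. P21 library r1 stood above both at 13 of 14 lower regions with a peak and below both at 3 of 3 higher regions. Over all regions with a peak in it, P21 r1 stood above both at 48.7% and below both at 36.6%. Without H3K4me3 it stood above both at 91.0%. In P14 r1, P21 r1 and, less so, P21 r2, most regions without H3K4me3 stood above both, and 7 of the 16 lower regions lacked that mark. The P0 libraries followed the wild-type side less closely. At higher regions P0 r1 was below both at 3 of 6 and above both at 2, and P0 r2 below both at 5 of 8 and above both at 2. At lower regions P0 r1 was above both at 4 of 4, and P0 r2 above both at 5 of 7 and below both at 2. Over all regions with a peak in it, P0 r1 was above both at 33.9% and below both at 41.5%. For P0 r2 these shares were 31.8% and 43.6%. Because the Brg1-deficient heights entered the rule, part of this ordering follows from the choice.

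H3K4me3 heights come from other libraries than the rule used. At the 8 lower regions with an H3K4me3 peak in wild-type P12, Brg1-deficient P12 and both wild-type P14 libraries, the scaled Brg1-deficient height was below wild-type P12 at 7, with a median log2 difference of −0.50. It lay below all 3 wild-type libraries at 5 of the 8, against 22.3% of the 13577 regions with such peaks. At chr8:119467122-119468368 it was 45.5, against 93.6 in wild-type P12 and 31.2 and 75.7 in wild-type P14, so there the difference was within the wild-type range. At chr13:101386261-101387089 it was 42.1, against 63.8, 62.4 and 86.2, below all 3. At the 9 higher regions the H3K4me3 height was above wild-type P12 at 8, with a median log2 difference of 0.34, and above all 3 wild-type libraries at 6, against 25.8% of all such regions. With 1 Brg1-deficient H3K4me3 library these differences have no replicate check.

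A limit of 1.5-fold gave larger lists of equal size, 216 lower (1.02% of 21112) and 217 higher regions (1.03%). They differed in kind. H3K4me3 was present at 122 of the lower (56.5%) and 197 of the higher regions (90.8%), against 69.2% of regions with a peak in all 4 libraries. Lower regions made up 1.45% of regions without H3K4me3 and 0.835% of those with it, and higher regions 0.308% and 1.35%. Brg1 peaks of P0 overlapped 52.3% of the lower and 88.9% of the higher regions, against 66.8%. Peaks at P21 and not at P0 overlapped 54.6% of lower and 9.68% of higher regions in the r2 libraries, against 29.9%, and 54.6% and 5.99% in the r1 libraries, against 23.1%.

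These features are linked, since regions with H3K4me3 more often had Brg1 and P0 acetylation throughout. Within regions with H3K4me3 the Brg1 share was 69.7% at lower and 92.4% at higher regions, against 82.2%, and the share with P21 but no P0 peak 31.1% and 4.57%, against 11.7%. Without H3K4me3, lower regions had Brg1 at 29.8%, near the 32.1% of all such regions, and P21 but no P0 peaks at 85.1%, against 70.7%. The 20 higher regions without H3K4me3 were few, with Brg1 at 55.0%. The H3K4me3 height followed acetylation at these lists too. The Brg1-deficient H3K4me3 height was below all 3 wild-type libraries at 54 of 95 lower regions (56.8%) and above all 3 at 94 of 192 higher regions (49.0%), the regions counted being those with an H3K4me3 peak in all 4 libraries of that mark.

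Beyond these lists, typical height differences did not separate the genotypes. At 6495 regions without H3K4me3 the median log2 difference from wild-type P12 was −0.21 in r1 (SD over regions 0.45) and −0.19 in r2 (SD 0.45), but it was −0.23 (SD 0.47) in wild-type P14 as well. Set against wild-type P14, r1 and r2 differed by 0.02 and 0.04. At 14617 regions with H3K4me3 the medians against wild-type P12 were 0.12 in r1, 0.04 in r2 and 0.06 in wild-type P14. These comparisons share the wild-type P12 library, and a shift of that library alone enters all 3 of them.

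Height differences varied with the stage at which a region was acetylated in wild type. At 354 regions with H3K4me3 and a peak at P0 but not at P21 (r2 libraries), r1 and r2 were above wild-type P14 by a median of 0.32 and 0.17, and above wild-type P12 by 0.19 and 0.02. At 171 such regions without H3K4me3 they were above wild-type P14 by 0.31 and 0.21, but the values against wild-type P12 were −0.06 and −0.15. Wild-type P14 was itself −0.13 from wild-type P12 at the 354 regions and −0.33 at the 171, so wild-type P12 too lay above wild-type P14. Regions with a peak at neither age were also above wild-type P14 in r1 and r2. The medians were 0.20 and 0.21 with H3K4me3, and 0.19 and 0.12 without. Regions with a peak at P21 but not at P0 lay lower against wild-type P12, at −0.21 and −0.16 for 1708 regions with H3K4me3 and −0.26 and −0.20 for 4595 without. In the latter, wild-type P14 was itself −0.21 from wild-type P12. Set against wild-type P14, the medians of r1 and r2 at the 1708 regions were −0.10 and −0.04. At the 4595 regions they were −0.04 and 0.02, so there the difference rested on the wild-type P12 reference.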

How the data were processed

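The authors deposited a narrowPeak list per library, with a fold enrichment (a ratio over background), a −log10 p-value and a −log10 q-value for each peak. They deposited H3K27me3 regions as SICER lists with an undefined score, of which positions alone were used. The submitters' processing notes name CASAVA, BWA 0.5.9-r26, Picard 1.65, SAMtools, R 2.14.0, MACS2 2.0.9, bedtools 2.17.0, SICER 1.1 and mm9. Depth was unknown. Fold enrichment depends on the depth and enrichment of a library.

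Peaks were merged and overlapped (minimum 1 bp) in pandas 2.3.3 and numpy 2.4.6 under Python 3.11.15. Overlaps were checked against bedtools 2.31.1 for 12 ordered pairs of libraries, and 0 differed. The class rules were also run on simulated lists with planted losses and drops. These had identical peak positions in every library and far less height noise than the real libraries. That run checks the code alone, not how the rules behave on data as variable as these. Wilson intervals came from scipy 1.17.1 and figures from matplotlib 3.10.9. The members, lists and limits were chosen with earlier results of these data known. The 6 regions named per class were those with the largest heights (presence classes) or the largest smallest ratio (lower and higher). Other regions and the windows were named after their values were seen. The reference tables were GRCm38, so no region was assigned to a gene, no sequence was read, and the comparisons planned for promoters and distal regions of listed genes were not run. Alternatives changed the libraries, peak numbers, scaling, fold, height measure, overlap, q-value and H3K4me3 rule.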

Additional observations from a re-analysis of the deposited data

How the results depend on the processing

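No paired analysis was possible because the results come from no test and wild-type P12 has 1 library. Of 72 recomputed values 41 moved beyond 1.5 times or beyond 1 SD between the Brg1-deficient libraries, and 0 changed sign. Most of them were counts or percentages, which cannot change sign, so only the median log2 differences could have done so. Leaving out a Brg1-deficient replicate in turn gave 4615 to 6042 wild-type-only, 4494 to 5288 Brg1-deficient-only, 159 to 197 lower and 56 to 111 higher regions. The rule then asks for fewer libraries, which by its construction admits more regions, and Brg1-deficient-only regions outnumbered wild-type-only ones when replicate 1 was left out. The found shares were then 92.2 to 93.9% with H3K4me3 and 46.6 to 55.3% without. With wild-type P12 alone the 4 counts were 10181, 2946, 75 and 255, so that higher exceeded lower regions. With wild-type P21 r2 in place of P14 r2, Brg1-deficient-only regions numbered 1610, lower 25 and higher 26. Equal numbers of peaks gave 1794 and 1276, and a −log10 q-value of at least 5 gave 717 wild-type-only and 112 Brg1-deficient-only regions. Lower and higher regions numbered 216 and 217 at 1.5-fold. After the data were seen, 1.5-fold was also tried with unscaled heights (165 and 208) and with mean fold enrichment (210 and 240). Mean fold enrichment at 2-fold gave 9 lower and 9 higher regions, an even split. The share found with H3K4me3 was 91.2% with equal peak numbers, 86.1% with an overlap of 50% of the shorter peak, 97.5% for the stronger 50% of peaks and 91.8% with H3K4me3 required in both genotypes. The stronger 50% without H3K4me3 gave 70.1%. Unscaled heights gave median log2 differences of 0.24 with and −0.042 without H3K4me3, against 0.08 and −0.20. One factor per library moves both kinds of regions alike, so scaling could not change the gap between them. The share of 1.5-fold lower regions with H3K4me3 was 46.1 to 58.1% and of higher regions 87.5 to 91.7% under these settings. Unknown depth, 1 wild-type P12 library, an unknown share of cells that keep Brg1, and the age gap of the P14 reference limit all of these values.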

Other observations

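Broad regions of acetylation, which in many cell types surround strongly expressed genes, were slightly lower in both Brg1-deficient libraries. At the 683 regions of at least 5 kb with a peak in all 4 libraries, the median log2 difference from wild-type P12 was −0.13 in r1 and −0.13 in r2, and −0.04 in wild-type P14. Against wild-type P14 the medians were −0.10 and −0.12. At regions under 5 kb they were 0.02 and −0.03 against wild-type P12, and 0.04 and 0.00 against wild-type P14. H3K4me3 was present at 83.3% of the broad regions, and 2 of them were lower and 0 higher by 2-fold.

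On chromosome X, 407 regions had a peak in all 4 libraries. Their median log2 difference from wild-type P12 was 0.15 in r1, 0.06 in r2 and 0.02 in wild-type P14, whereas on autosomes it was 0.01, −0.04 and −0.04. Wild-type-only regions made up 2.55% of the 746 regions of the chromosome, below the 4.15 to 6.12% of single autosomes, and Brg1-deficient-only regions 1.74%, within the autosomal range. The sex of the animals was not given in the labels used here, and its part in this difference was not tested. Of the 746 regions of the chromosome 407 had a peak in all 4 libraries, against 21112 of all 60356 regions. Wild-type-only regions made up 1.28% of all regions with H3K4me3 and 7.03% of those without it. The share of chromosome X regions with H3K4me3 is not given here, and its part was not tested either.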
